A study of Mus musculus with 16 samples.

Results

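The genes described here are the p53 targets Mdm2, Ccng1, Sesn1, Trp53inp1 and Fas and the GADD45 family (Gadd45a, Gadd45b and Gadd45g), followed across 2 mouse CD8 clones activated through the T cell receptor complex. They were chosen by gene symbol: of 10 symbols listed, 8 had a probe set annotated to that symbol alone, out of 19938 genes measured, and each of the 8 had 1 such probe set. Trp53 was not analysed here, and the probe set annotated to Cdkn1a also carries 4930567H12Rik, so its values are given apart and belong to neither gene with certainty.

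The arrays fall into 4 groups of 4: the unconventional clone with anti-CD3 and cyclosporine A, the unconventional clone with anti-CD3 alone, the conventional clone with anti-CD3 and cyclosporine A, and the conventional clone given anti-CD3 alone. The labels call the unconventional clone cyclosporine-resistant and the conventional clone cyclosporine-sensitive. All groups were activated with immobilized anti-CD3 in medium lacking recombinant cytokines, after growth in a cytokine mixture, and cyclosporine A was used at 1 ug per ml. Each arm of the comparison between clones is 1 clone, so clone and type cannot be told apart, and no unstimulated cells were analysed here. Whether replicates were separate cultures is not stated: each p-value is then set against array-to-array spread alone, which may be technical. The levels are log2 expression values per probe set; array medians lay between 5.16 and 5.35, and arrays of 1 group correlated at 0.995 to 0.998. The chains Cd3d, Cd3e, Cd3g, Cd247, Cd8a and Cd8b1 stood at 8.56 or above in every group, whereas the T cell markers Cd2 (3.99 to 4.25) and Cd5 (4.83 to 5.12) were low. No B cell, erythroid or granulocyte marker reached 6 in any group. Of 6 fibroblast and epithelial markers, Col1a1 lay at 6.06 to 6.68 in every group, Col1a2 reached 6.15 in the conventional clone under anti-CD3 alone and Krt8 6.01 in the conventional clone with the drug. Of 6 macrophage markers 1 reached 6: Cd68 stood at 9.13 and 8.71 in the unconventional clone with and without the drug, and at 8.05 and 7.26 in the conventional clone, while Adgre1 lay at 3.52 to 3.70 and Csf1r at 3.96 to 4.29. The part of cells other than T cells in the results was not tested.

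p53 is a transcription factor that is kept low by the ubiquitin ligase Mdm2 and is stabilised by DNA damage and other stress. It then switches on genes that stop the cell cycle, repair DNA, adjust metabolism or start cell death, Mdm2 itself among them. The GADD45 proteins are small stress-inducible proteins that bind the kinase Map3k4 upstream of p38 and JNK, the kinase Cdk1 and the replication clamp Pcna. In mouse T cells Gadd45b and Gadd45g are known for supporting p38 activation and interferon-γ production. Cyclosporine A inhibits the phosphatase calcineurin and so keeps NFAT transcription factors inactive.

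The promoters of 5 of the genes are shown: those of Ccng1 and Mdm2 as examples of p53 targets with a match to the p53 half-site, and those of the 3 GADD45 genes because their elements differ within the family. Each window runs from 250 bases before to 50 bases after the annotated start, from RefSeq on GRCm38.p6, written 5′ to 3′ on the gene's strand. Capitals mark matches on either strand to the p53 half-site in all 5 windows and, in the GADD45 windows, also to GGAAA (the core bound by NFAT), CACGTG (the E-box) and TATAAA (the TATA box). No matches overlapped.
Ccng1, chr11:40755237-40755536, minus strand: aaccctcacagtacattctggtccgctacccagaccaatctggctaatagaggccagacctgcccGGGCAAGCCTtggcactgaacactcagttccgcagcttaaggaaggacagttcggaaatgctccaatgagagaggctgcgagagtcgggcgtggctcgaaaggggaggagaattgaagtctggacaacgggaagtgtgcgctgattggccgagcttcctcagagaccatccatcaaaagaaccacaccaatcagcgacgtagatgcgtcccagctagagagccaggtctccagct
Mdm2, chr10:117710709-117711008, minus strand: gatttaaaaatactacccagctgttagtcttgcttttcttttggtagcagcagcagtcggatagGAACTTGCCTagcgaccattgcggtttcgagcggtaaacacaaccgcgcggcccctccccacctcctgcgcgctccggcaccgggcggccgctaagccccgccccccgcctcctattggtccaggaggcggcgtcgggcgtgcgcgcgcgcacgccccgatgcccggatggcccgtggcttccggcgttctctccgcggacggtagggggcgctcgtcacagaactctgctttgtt
Gadd45a, chr6:67037358-67037657, minus strand: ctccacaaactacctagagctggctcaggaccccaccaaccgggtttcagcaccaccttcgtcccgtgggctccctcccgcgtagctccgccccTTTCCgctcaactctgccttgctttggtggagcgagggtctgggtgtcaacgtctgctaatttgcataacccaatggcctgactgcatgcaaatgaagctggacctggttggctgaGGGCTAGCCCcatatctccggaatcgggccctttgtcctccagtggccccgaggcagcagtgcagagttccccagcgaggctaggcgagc
Gadd45b, chr10:80929841-80930140, plus strand: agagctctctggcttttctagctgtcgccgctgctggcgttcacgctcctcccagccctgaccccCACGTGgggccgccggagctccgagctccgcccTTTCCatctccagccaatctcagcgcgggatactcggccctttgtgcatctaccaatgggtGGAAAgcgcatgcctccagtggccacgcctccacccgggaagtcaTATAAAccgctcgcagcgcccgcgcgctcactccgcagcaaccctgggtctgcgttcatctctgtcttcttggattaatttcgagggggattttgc
Gadd45g, chr13:51846425-51846724, plus strand: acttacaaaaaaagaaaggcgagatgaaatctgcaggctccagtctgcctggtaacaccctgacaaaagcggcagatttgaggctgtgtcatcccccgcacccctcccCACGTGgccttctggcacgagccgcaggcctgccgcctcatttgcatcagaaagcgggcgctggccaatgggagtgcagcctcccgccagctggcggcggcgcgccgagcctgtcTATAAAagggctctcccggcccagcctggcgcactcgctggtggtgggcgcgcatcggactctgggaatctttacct

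Gadd45b and Gadd45g both have an E-box and a TATA box upstream of the start, Gadd45a has neither in this window, and Gadd45a alone of the 3 has a p53 half-site. Among the p53 targets whose windows are not shown, Fas has 0 half-sites, and Sesn1 has 1 in one of its 2 windows and 0 in the other. Cdkn1a has 2 half-sites in one of its 2 windows and 0 in the other. Over all 32851 promoter windows of 300 bases in the table, 8.4% hold the p53 half-site, 61.3% the NFAT core, 7.2% the E-box and 13.6% the TATA box. The NFAT core was found in the windows of Gadd45a (1 match) and Gadd45b (2 matches) and not in that of Gadd45g. It was also found in those of Ccng1 (1 match, left in lower case) and Fas (2 matches), and in one of the 2 windows of Cdkn1a (1 match). The window of Fas also has 1 E-box match. These matches describe letters and are not evidence of binding. Of the 10 symbols, 9 were in the promoter table, and Trp53inp1 was not. The window of Trp53 is not described here.

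The first question was what cyclosporine A changed in each clone. In the unconventional clone 3 of the 8 genes were higher with the drug (Trp53inp1, Sesn1 and Ccng1) and 3 were lower (all 3 GADD45 genes). In the conventional clone 4 were higher (the same 3 and Mdm2) and 2 were lower (Gadd45b and Gadd45a). Calls are those with an adjusted p (Benjamini-Hochberg) under 0.05 in a limma fit over all genes and all arrays. Against 6 of 8 genes called in each clone, the background was broad: 24.9% of all genes were called in the unconventional clone (12.6% higher, 12.3% lower, and 1931 genes higher and 2684 lower after median centring) and 31.4% in the conventional clone (15.9% higher, 15.5% lower). The drug and anti-CD3-alone arrays did not overlap for 6 of the 8 genes in the unconventional clone, beside 27.2% of all genes, and for 7 of the 8 in the conventional clone, beside 30.5%. The shares of all genes, here and below, include genes with low signal. The means of the 8 genes lay at the 58.5th to 98th percentile of all genes, except Fas at the 23.8th. How often genes of like level were called was not counted. The median change of the 8 genes was -0.19 in the unconventional clone and 0.04 in the conventional clone, beside 0.02 over all genes in each. The arrays measured RNA of whole cultures, so a change in fewer cells and a smaller change in every cell cannot be told apart.

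Mdm2 (chr10:117688875-117710758 on GRCm38.p6), the ligase that marks p53 for degradation, stood at 9.15, 9.28, 9.37 and 9.33 in unconventional arrays with cyclosporine A, against 9.10, 9.42, 9.30 and 9.36 with anti-CD3 alone. It stood at 9.90, 9.99, 9.92 and 10.01 in conventional arrays with the drug, against 9.65, 9.66, 9.47 and 9.58 without it. The drug groups overlapped in the unconventional clone and were apart in the conventional clone, where every drug array was higher. The change was -0.01 (SE 0.08, adjusted p = 0.954, 95% interval -0.17 to 0.15) in the unconventional clone and 0.37 (SE 0.08, adjusted p = 0.000725), or 1.29-fold, in the conventional clone. The difference of these effects was -0.38 (SE 0.11, adjusted p = 0.02), a call lost without unconventional cyclosporine A replicate 1 (-0.33, adjusted p = 0.0512).

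Ccng1 (chr11:40748552-40755309) encodes cyclin G1, a p53 target that recruits the phosphatase PP2A and acts back on Mdm2, and its promoter holds the p53 half-site shown above. Its levels were 11.24, 11.26, 11.14 and 11.21 in unconventional arrays with the drug, against 10.85, 10.76, 10.58 and 10.56 with anti-CD3 alone. In conventional arrays they were 11.95, 12.07, 12.03 and 11.99 with the drug, against 11.54, 11.45, 11.44 and 11.41 with anti-CD3 alone. The groups were apart in both clones, and Ccng1 rose in each, by 0.53 (SE 0.07, adjusted p = 9.93e-06), or 1.44-fold, in the unconventional clone and by 0.55 (SE 0.07, adjusted p = 3.09e-06), or 1.46-fold, in the conventional clone. The difference of effects was -0.02 with a 95% interval of -0.23 to 0.19 (adjusted p = 0.939).

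Sesn1 (chr10:41810574-41908436), a sestrin that restrains mTORC1 signalling and is induced by p53 and by FOXO factors, ranged from 7.33 to 7.59 in unconventional arrays with the drug, against 6.74 to 7.09 with anti-CD3 alone. In conventional arrays it ranged from 5.74 to 6.06 with the drug, against 5.21 to 5.65 with anti-CD3 alone. It rose by 0.61 (SE 0.11, adjusted p = 0.000167) in the unconventional clone and by 0.42 (SE 0.11, adjusted p = 0.00353) in the conventional clone. The difference of effects was 0.19 (95% interval -0.13 to 0.50, adjusted p = 0.519).

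Trp53inp1 (chr4:11156441-11174379), a stress-induced nuclear protein that promotes autophagy and p53 activity, had the largest rise of the 8 genes in both clones. It stood at 9.15, 8.77, 8.78 and 9.29 in unconventional arrays with the drug, against 5.60, 5.53, 5.67 and 5.90 with anti-CD3 alone. In conventional arrays it stood at 8.13, 8.45, 8.21 and 8.33 with the drug, against 6.89, 6.87, 6.68 and 7.12 with anti-CD3 alone. The lowest drug array of either clone lay above the highest array without the drug. The rise was 3.32 (SE 0.12, adjusted p = 1.03e-13) in the unconventional clone, a 10.0-fold change, and 1.39 (SE 0.12, adjusted p = 1.35e-08) in the conventional clone, a 2.62-fold change. The effect was larger in the unconventional clone by 1.93 (SE 0.17, adjusted p = 1.05e-07).

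**Figure D1:**
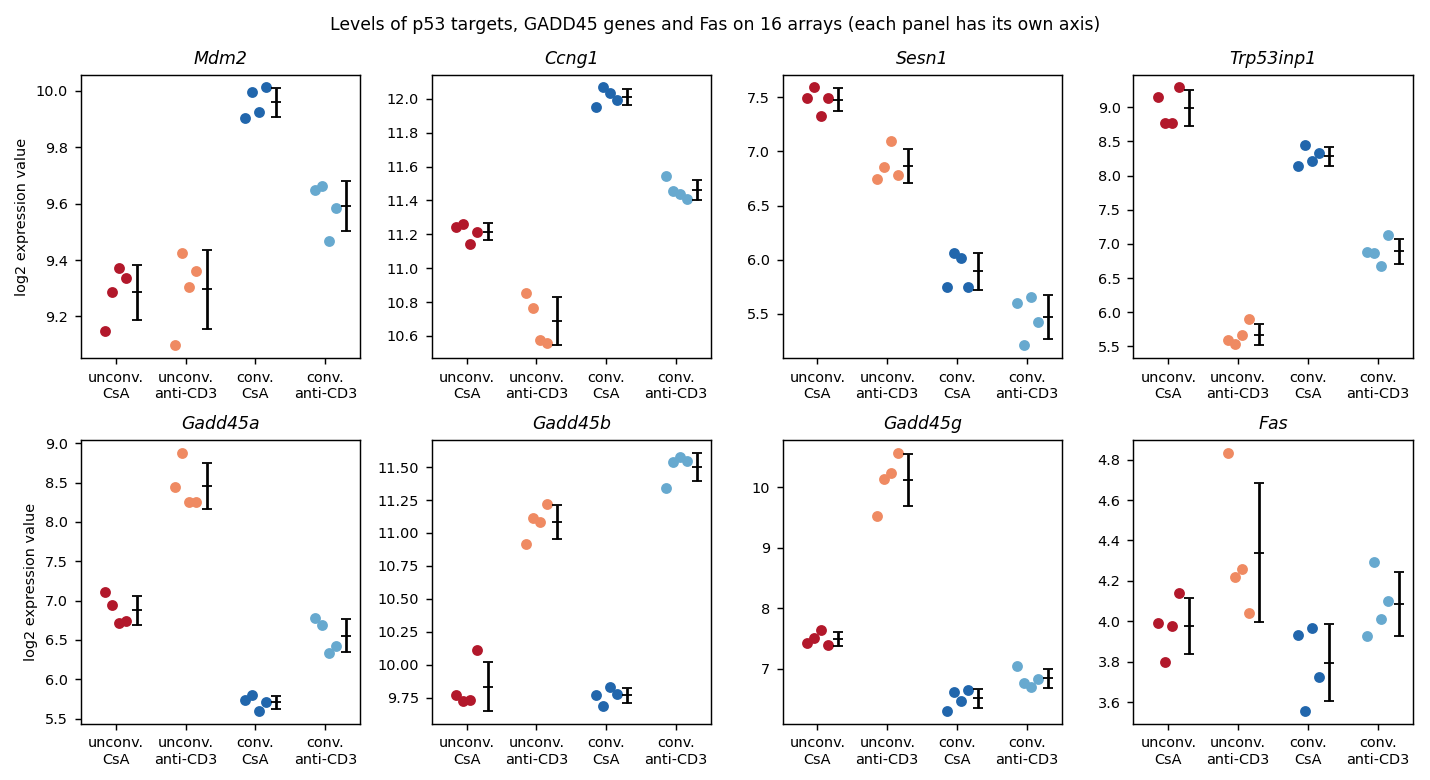
Log2 expression value (vertical axis, its own scale in each panel) of the 8 genes on each of the 16 arrays, by group; unconv. is the unconventional clone, conv. the conventional clone, CsA anti-CD3 with cyclosporine A. Points are arrays and bars are the mean ± SD (n = 4): Trp53inp1 was lowest in the unconventional clone with anti-CD3 alone (5.67 ± 0.16) and highest there with the drug (8.99 ± 0.26), while Gadd45g was highest in the unconventional clone with anti-CD3 alone (10.12 ± 0.43).

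Gadd45a and Gadd45b fell with the drug in both clones, and Gadd45g fell in the unconventional clone. Gadd45a (chr6:67035096-67037407), a p53 target that in mouse T cells restrains an alternative route of p38 activation, stood at 7.11, 6.94, 6.72 and 6.74 in unconventional arrays with the drug, against 8.44, 8.88, 8.25 and 8.25 with anti-CD3 alone. In conventional arrays it stood at 5.73, 5.80, 5.60 and 5.71 with the drug, against 6.78, 6.69, 6.34 and 6.42 with anti-CD3 alone. The groups were apart in both clones. Gadd45a fell by 1.58 (SE 0.13, adjusted p = 1.47e-08) in the unconventional clone, to a level 2.99-fold lower, and by 0.85 (SE 0.13, adjusted p = 2.19e-05) in the conventional clone. The fall was larger in the unconventional clone (-0.73, SE 0.18, adjusted p = 0.00704).

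Gadd45b, induced by NF-kB and by cytokines (chr10:80930091-80932204), stood at 9.77, 9.73, 9.74 and 10.11 in unconventional arrays with the drug, against 10.91, 11.11, 11.08 and 11.22 with anti-CD3 alone. In conventional arrays it stood at 9.77, 9.69, 9.83 and 9.78 with the drug, against 11.34, 11.54, 11.58 and 11.54 with anti-CD3 alone. With the drug the clones overlapped, and the groups with and without drug were apart in each. Gadd45b fell by 1.25 (SE 0.09, adjusted p = 2.32e-09) in the unconventional clone, to 2.37-fold lower, and by 1.73 (SE 0.09, adjusted p = 6.39e-12) in the conventional clone, to 3.32-fold lower. The effect was smaller in the unconventional clone by 0.49 (SE 0.13, adjusted p = 0.00976).

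Gadd45g (chr13:51846675-51848475), known in mouse T helper cells as a gene induced by interleukin 12, showed the widest range of group means of the 8 genes, 3.60. It stood at 7.42, 7.50, 7.65 and 7.39 in unconventional arrays with the drug, against 9.53, 10.14, 10.23 and 10.57 with anti-CD3 alone. In conventional arrays it stood at 6.31, 6.63, 6.47 and 6.65 with the drug, against 7.05, 6.77, 6.70 and 6.84 with anti-CD3 alone. Only the unconventional clone with anti-CD3 alone held arrays above 9. Gadd45g fell by 2.63 (SE 0.15, adjusted p = 8.87e-11) in the unconventional clone, to 6.17-fold lower. In the conventional clone the change was -0.33 (SE 0.15, adjusted p = 0.115), not called although the arrays did not overlap. It was called there when unconventional anti-CD3 replicate 1, which holds the 9.53, was left out (adjusted p = 0.0208) and when only the conventional arrays were fitted (adjusted p = 0.0288). The difference of effects was -2.30 (SE 0.21, adjusted p = 1.78e-07).

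Fas (chr19:34290647-34327775), the receptor whose ligand triggers death of activated T cells, was dim on every array, with a mean of 4.05 that lay at the 23.8th percentile of all genes. It ranged from 3.80 to 4.14 in unconventional arrays with the drug, against 4.04 to 4.83 with anti-CD3 alone, and from 3.56 to 3.96 in conventional arrays with the drug, against 3.93 to 4.30 with anti-CD3 alone. The groups overlapped in both clones. The change was -0.36 (SE 0.14, adjusted p = 0.0608) in the unconventional clone and -0.29 (SE 0.14, adjusted p = 0.126) in the conventional clone. The value in the unconventional clone passed the threshold after median centring (-0.41, adjusted p = 0.0182), quantile normalization (-0.39, adjusted p = 0.0376) and cyclic loess normalization (-0.39, adjusted p = 0.0374). When single arrays were left out it ran from -0.46 (adjusted p = 0.0196, without anti-CD3 replicate 4 of that clone) to -0.20 (adjusted p = 0.25, without anti-CD3 replicate 1, the array at 4.83), and it passed in 2 of these 16 fits. The value in the conventional clone passed without unconventional anti-CD3 replicate 1 (adjusted p = 0.0375).

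**Figure D2:**
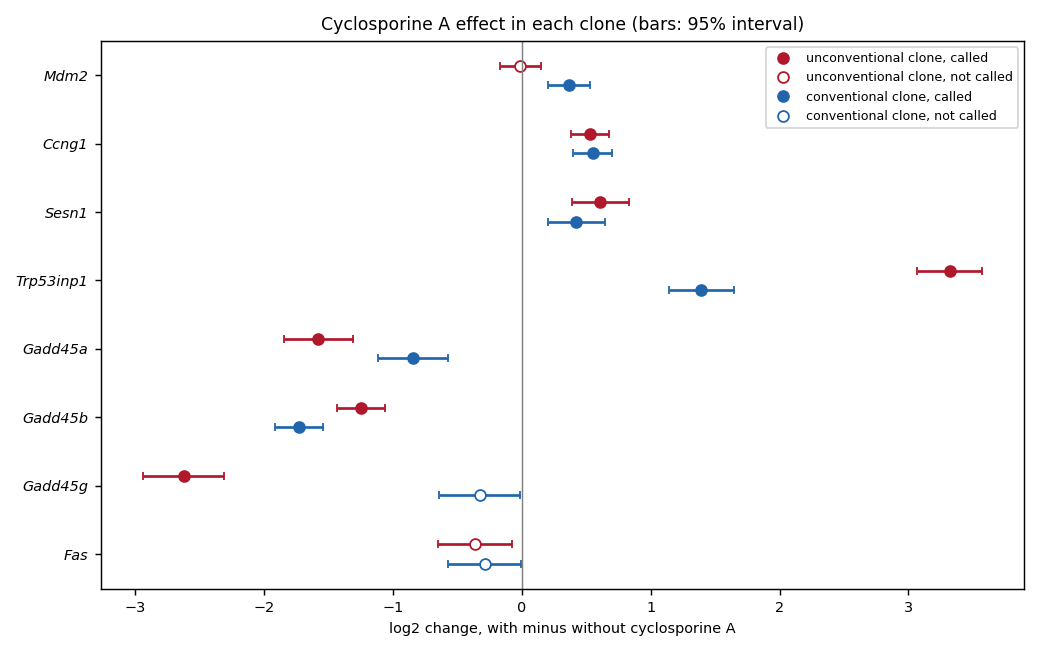
Log2 change with minus without cyclosporine A (horizontal axis) for each gene, in the unconventional clone (red) and the conventional clone (blue); points are fitted changes, bars their 95% intervals, and filled points were called. Trp53inp1 (3.32 and 1.39) lies to the right in both clones and the 3 GADD45 genes have values below 0, with Gadd45g at -2.63 in the unconventional clone and -0.33, not called, in the conventional clone.

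Of the 8 genes, 5 differed between the clones in their response to the drug, 2 with a higher and 3 with a lower value in the unconventional clone, while 16.3% of all genes did (8.51% higher, 7.78% lower). The response was larger in the unconventional clone for Trp53inp1, Gadd45g and Gadd45a, and larger in the conventional clone for Gadd45b and Mdm2. It was not called for Sesn1, Ccng1 and Fas, whose intervals are given above except that of Fas (-0.07, 95% interval -0.48 to 0.33). The probe set shared by 4930567H12Rik and Cdkn1a (the p21 inhibitor of cyclin-dependent kinases) stood at 9.65 ± 0.12 in the unconventional clone with the drug, against 9.41 ± 0.27 with anti-CD3 alone (SD, n = 4). It stood at 11.35 ± 0.08 in the conventional clone with the drug, against 11.07 ± 0.11 with anti-CD3 alone (SD, n = 4). Its change was 0.24 (SE 0.11, adjusted p = 0.123) in the unconventional clone and 0.28 (SE 0.11, adjusted p = 0.0534) in the conventional clone. The change in the conventional clone passed the threshold under 6 other settings (adjusted p down to 0.0179), and that in the unconventional clone ran from 0.34 (adjusted p = 0.0154) without anti-CD3 replicate 4 of that clone to 0.13 (adjusted p = 0.419) without its anti-CD3 replicate 1.

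The second question was how the clones differed from each other. With anti-CD3 alone 7 of the 8 genes differed, against 42% of all genes (20.3% higher and 21.7% lower in the unconventional clone, and 4417 genes higher and 2952 lower after median centring). The same 7 had arrays that did not overlap between clones, beside 38.6% of all genes. Sesn1, Gadd45a and Gadd45g were higher in the unconventional clone, and Mdm2, Ccng1, Trp53inp1 and Gadd45b were lower. With cyclosporine A 6 of the 8 differed, against 44.2% of all genes (21.3% higher, 23% lower), and these 6 did not overlap between clones, beside 42.2% of all genes. Sesn1, Trp53inp1, Gadd45a and Gadd45g were then higher in the unconventional clone, and Mdm2 and Ccng1 lower.

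Gadd45g had the largest difference with anti-CD3 alone, 10.12 ± 0.43 in the unconventional clone and 6.84 ± 0.15 in the conventional clone (SD, n = 4), or 9.68-fold (3.27, SE 0.15, adjusted p = 5.97e-13). With the drug it stood at 7.49 ± 0.11 in the unconventional clone and 6.51 ± 0.16 in the conventional clone (SD, n = 4), a difference of 0.98 (SE 0.15, adjusted p = 1.69e-05). Gadd45a was 3.73-fold higher in the unconventional clone with anti-CD3 alone (1.90, SE 0.13, adjusted p = 2.09e-10) and 2.24-fold higher with the drug (1.17, SE 0.13, adjusted p = 1.99e-07). Gadd45b was the exception in its family: it was lower in the unconventional clone with anti-CD3 alone (-0.42, SE 0.09, adjusted p = 0.000675), and with the drug the clones differed by 0.07 (95% interval -0.12 to 0.25, adjusted p = 0.56).

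Trp53inp1 changed sides. With anti-CD3 alone it was 2.32-fold lower in the unconventional clone (-1.22, SE 0.12, adjusted p = 6.16e-08), and with the drug it was 1.64-fold higher there (0.71, SE 0.12, adjusted p = 5.18e-05). In both conditions the 4 arrays of one clone did not overlap with those of the other. Sesn1 was higher in the unconventional clone in both conditions, 2.63-fold with anti-CD3 alone (1.40, SE 0.11, adjusted p = 1.14e-09) and 3.00-fold with the drug (1.58, SE 0.11, adjusted p = 1.18e-10).

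Ccng1 and Mdm2 lay lower in the unconventional clone in both conditions. For Ccng1 the difference was -0.77 (SE 0.07, adjusted p = 2.1e-08) with anti-CD3 alone and -0.80 (SE 0.07, adjusted p = 1.02e-08) with the drug, with no overlap between clones in either condition. For Mdm2 it was -0.29 (SE 0.08, adjusted p = 0.00407) with anti-CD3 alone, a call lost after median centring (-0.23, adjusted p = 0.0559), and -0.67 (SE 0.08, adjusted p = 3.44e-07) with the drug. The probe set shared by 4930567H12Rik and Cdkn1a was 3.15-fold lower in the unconventional clone with anti-CD3 alone (-1.66, SE 0.11, adjusted p = 9.78e-11) and 3.24-fold lower with the drug (-1.70, SE 0.11, adjusted p = 4.48e-11), without overlap. Fas differed by 0.25 (SE 0.14, adjusted p = 0.146) with anti-CD3 alone and by 0.18 (SE 0.14, adjusted p = 0.294) with the drug. The value with anti-CD3 alone passed the threshold after quantile (0.35, adjusted p = 0.0439), median (0.32, adjusted p = 0.0456) and cyclic loess scaling (0.36, adjusted p = 0.0399), but was 0.09 (adjusted p = 0.554) without unconventional anti-CD3 replicate 1 and passed in 0 of the 16 fits that left out an array.

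**Figure D3:**
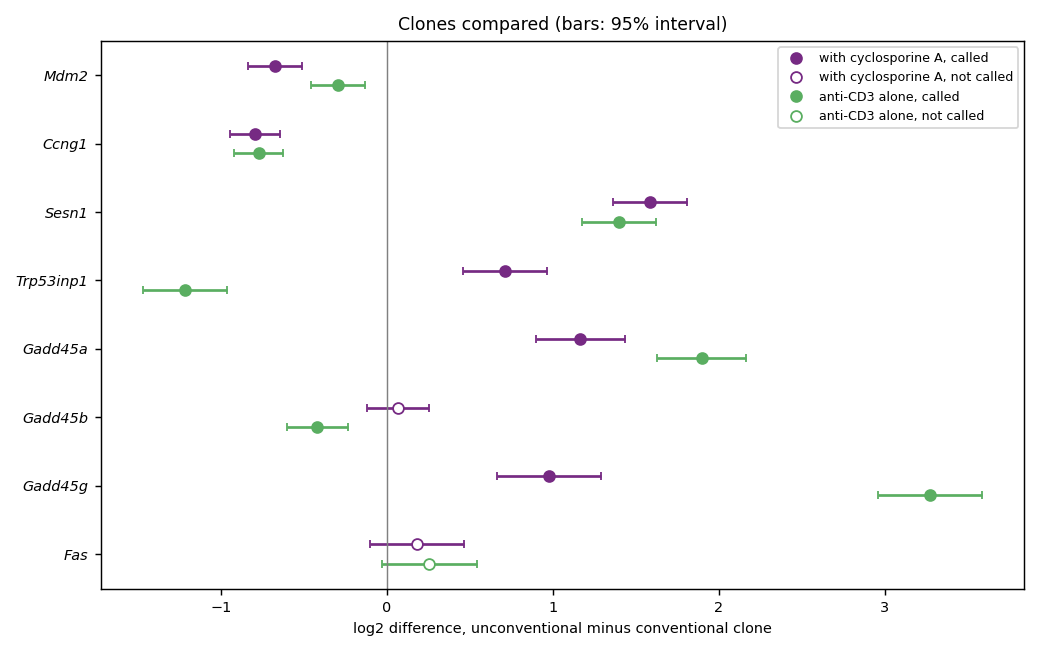
Log2 difference, unconventional minus conventional clone (horizontal axis), for each gene with cyclosporine A (purple) and with anti-CD3 alone (green); points are fitted differences, bars their 95% intervals, and filled points were called. Trp53inp1 lies on opposite sides of 0 in the 2 conditions (0.71 with the drug and -1.22 without it), and Gadd45g stands furthest right with anti-CD3 alone (3.27).

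The order of the 4 groups differed by gene. Gadd45g and Gadd45a were highest in the unconventional clone with anti-CD3 alone and lowest in the conventional clone with the drug. Sesn1 was highest in the unconventional clone with the drug and lowest in the conventional clone without it, whereas Ccng1 was highest in the conventional clone with the drug and lowest in the unconventional clone with anti-CD3 alone. For Trp53inp1, Ccng1, Sesn1 and Gadd45g no neighbours in that order overlapped. How many of all genes had 4 groups apart in this way was not counted. In the pairwise comparisons above, 27.2% to 42.2% of all genes did not overlap. For Fas all neighbours overlapped. For Gadd45a the neighbours in the middle, the unconventional clone with the drug (6.88 ± 0.19) and the conventional clone with anti-CD3 alone (6.56 ± 0.21), overlapped (SD, n = 4). For Mdm2 the arrays of the unconventional clone with the drug (9.29 ± 0.10) and without it (9.30 ± 0.14), the lowest neighbours, overlapped (SD, n = 4). For Gadd45b the lowest neighbours were the unconventional clone (9.84 ± 0.18) and the conventional clone (9.77 ± 0.06) with the drug, and they overlapped too (SD, n = 4).

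Further genes of the pathway were taken from 6 lists with 96 genes, of which 87 were measured. Their counts stand beside 24.9% of all genes called with the drug in the unconventional clone and 31.4% in the conventional clone, and beside 44.2% of all genes called between clones with the drug and 42% with anti-CD3 alone. Counts of genes whose response differed between the clones stand beside 16.3% of all genes. All these shares include genes with low signal, and the lists were not set against genes of like level. Among 20 p53 targets of cell cycle arrest, metabolism and repair, 5 rose and 3 fell in the unconventional clone (40% called), and 6 rose and 4 fell in the conventional clone (50%). The list's median change was 0.01 in the unconventional clone and 0.08 in the conventional clone. In the unconventional clone the largest changes were in the antiproliferative gene Btg2 (1.86, adjusted p = 1.09e-11), the sestrin Sesn3 (1.52, adjusted p = 9.74e-09), Ccng2, the cyclin G paralogue (1.38, adjusted p = 0.000298), and the mTORC1 inhibitor Ddit4 (1.35, adjusted p = 9.19e-05). In the conventional clone they were in the translesion polymerase Polk (1.26, adjusted p = 2.14e-11), the Trp53inp1 paralogue Trp53inp2 (1.23, adjusted p = 7.88e-08), Gtse1, which carries p53 out of the nucleus (-1.19, adjusted p = 1.53e-07), and Sesn3 (1.19, adjusted p = 1.09e-07). Each of these genes except Polk was also called in the same direction in the other clone.

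Of these 20 genes 3 (15%) differed between the clones in their response, near the 16.3% of all genes. They were Polk, Btg2 and, named after its values were seen, Trp53inp2 (-0.70, adjusted p = 0.00648). Polk rose in the conventional clone to 8.41 ± 0.07 with the drug, against 7.14 ± 0.10 with anti-CD3 alone, while it stood at 8.33 ± 0.07 and 8.38 ± 0.08 in the unconventional clone under the same 2 conditions (SD, n = 4; difference of effects -1.31, adjusted p = 1.29e-08). Btg2 rose further in the unconventional clone (1.29, adjusted p = 6.05e-07).

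Between the clones, 15 of the 20 (75%) differed with the drug, 7 higher and 8 lower in the unconventional clone, and 11 (55%) with anti-CD3 alone, 6 higher and 5 lower. The largest differences were in Phlda3, a p53 target that restrains Akt, and in the sestrin Sesn2. With anti-CD3 alone Phlda3 stood at 5.06 ± 0.34 in the unconventional clone and 8.08 ± 0.19 in the conventional clone (SD, n = 4; -3.01, adjusted p = 1.58e-13). Sesn2 stood at 7.60 ± 0.28 in the unconventional clone and 10.35 ± 0.17 in the conventional clone (SD, n = 4; -2.75, adjusted p = 2.09e-13). Both were also lower there with the drug (-2.52, adjusted p = 1.48e-12 for Phlda3; -2.47, adjusted p = 6.62e-13 for Sesn2). Sesn2 and Sesn1 thus lay on opposite sides in this comparison. Not all targets were lower: the DNA damage sensor Ddb2, named after its values were seen, was 2.24 higher in the unconventional clone with anti-CD3 alone (adjusted p = 1.2e-11) and 2.11 higher with the drug (adjusted p = 1.86e-11).

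Of 13 measured p53 targets in cell death, 5 rose and 4 fell in the unconventional clone (69.2% called), 3 rose and 2 fell in the conventional clone (38.5%), and the list's median change was 0.09 in the unconventional clone and 0.05 in the conventional clone. The inflammatory caspase Casp1 rose by 2.16 (adjusted p = 3.14e-09) in the unconventional clone and by 2.87 (adjusted p = 1.63e-11) in the conventional clone. The TRAIL receptor Tnfrsf10b fell by 0.95 in both clones (adjusted p = 1.97e-08 in the unconventional clone and 6.97e-09 in the conventional clone). The apoptosome component Apaf1 rose by 0.93 (adjusted p = 9.16e-09) in the unconventional clone and by 0.32 (adjusted p = 0.00158) in the conventional clone. The metalloreductase gene Steap3 rose by 0.94 (adjusted p = 3.04e-06) in the unconventional clone, and its change was 0.05 (adjusted p = 0.801) in the conventional clone. Pidd1, a caspase-2 activator, fell by 0.64 (adjusted p = 0.000244) in the unconventional clone and fell by 0.70 (adjusted p = 5.25e-05) in the conventional clone. Bbc3, the BH3-only protein PUMA, rose by 0.34 (adjusted p = 0.0055) in the unconventional clone and by 0.35 (adjusted p = 0.00335) in the conventional clone, where its arrays overlapped. The response differed between the clones for 3 of the 13 genes (23.1%, beside 16.3% of all genes). The response of Steap3 was larger in the unconventional clone (0.89, adjusted p = 0.000496). For Casp1 it was smaller there (-0.72, adjusted p = 0.0317), but the value lay between -0.85 and -0.55 when single arrays were left out, with the call lost in 7 of these 16 fits, and the call was also lost after quantile normalization (-0.68, adjusted p = 0.0589).

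Pmaip1, the BH3-only protein NOXA, was lower in the unconventional clone. It stood at 6.87 ± 0.18 in the unconventional clone and 8.71 ± 0.24 in the conventional clone under anti-CD3 alone (SD, n = 4; -1.84, adjusted p = 1.53e-11). With the drug it stood at 6.52 ± 0.03 in the unconventional clone and 8.47 ± 0.12 in the conventional clone (SD, n = 4; -1.95, adjusted p = 3.94e-12). Tnfrsf10b was higher there with the drug (1.26, adjusted p = 4.55e-11) and with anti-CD3 alone (1.26, adjusted p = 7.09e-11). Steap3 was also higher there with the drug (1.46, adjusted p = 1.46e-09) and with anti-CD3 alone (0.57, adjusted p = 0.000425). In all, 8 of the 13 genes (61.5%) differed with the drug, 4 in each direction, and 10 (76.9%) with anti-CD3 alone, 5 in each direction.

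Among 21 regulators of p53, 3 rose and 4 fell with the drug in the unconventional clone (33.3% called), and 5 rose and 7 fell in the conventional clone (57.1%). The checkpoint kinase gene Chek1 fell by 0.94 (adjusted p = 0.000396) in the unconventional clone and by 1.25 (adjusted p = 9.83e-06) in the conventional clone. Trp73, a p53 family member, rose by 0.66 (adjusted p = 0.00102) in the unconventional clone and by 0.87 (adjusted p = 3.9e-05) in the conventional clone. In the unconventional clone Nqo1, which can stabilise p53, rose by 0.68 (adjusted p = 0.011) at a dim level, 4.31 with the drug against 3.63 with anti-CD3 alone, and its arrays overlapped. Its change in the conventional clone was -0.06 (adjusted p = 0.872). The kinase gene Atr fell by 0.22 (adjusted p = 0.039) in the unconventional clone, where its arrays overlapped. It fell by 0.96 (adjusted p = 4e-09) in the conventional clone, a difference of effects of 0.74 (adjusted p = 4.67e-05). Hipk2, another kinase gene, fell by 0.45 (adjusted p = 0.0154) in the unconventional clone and fell by 0.89 (adjusted p = 2.18e-05) in the conventional clone.

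Cdkn2a, which encodes p16Ink4a and the Mdm2 inhibitor p19Arf and whose probe set does not separate them here, differed most between the clones in this list. It stood at 10.36 ± 0.39 in the unconventional clone and 6.21 ± 0.28 in the conventional clone with the drug (SD, n = 4; 4.15, adjusted p = 3.86e-14). With anti-CD3 alone it stood at 9.71 ± 0.23 in the unconventional clone and 6.73 ± 0.11 in the conventional clone (SD, n = 4; 2.98, adjusted p = 9.18e-12). The drug moved it in opposite directions: it rose by 0.65 (adjusted p = 0.0049) in the unconventional clone and fell by 0.52 (adjusted p = 0.0188) in the conventional clone, and the difference of effects was 1.17 (adjusted p = 0.00113). Its arrays with and without the drug overlapped in the unconventional clone and were apart in the conventional clone. Chek1 was higher in the unconventional clone as well, by 2.82 with the drug (adjusted p = 4.65e-11) and by 2.51 with anti-CD3 alone (adjusted p = 4.18e-10). Over the list, 16 of 21 genes (76.2%) differed with the drug, 10 higher and 6 lower, and 13 (61.9%) with anti-CD3 alone, 10 higher and 3 lower. The response to the drug differed between the clones for 6 of the 21 (28.6%, beside 16.3% of all genes).

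**Figure D4:**
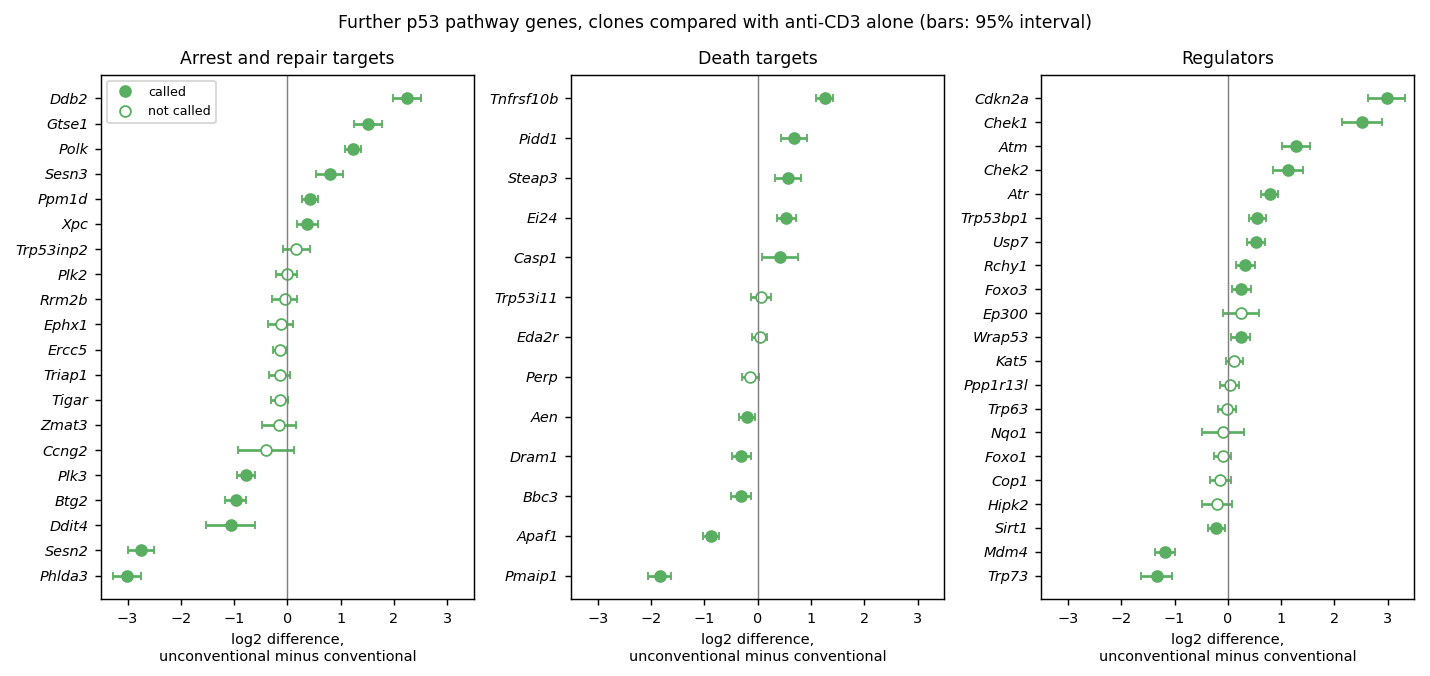
Log2 difference, unconventional minus conventional clone with anti-CD3 alone (horizontal axis), for each measured gene of the lists of arrest and repair targets, death targets and regulators of p53; points are fitted differences, bars their 95% intervals, and filled points were called. Phlda3 (-3.01), Sesn2 (-2.75) and Pmaip1 (-1.84) stand at the low end of their lists, and Ddb2 (2.24) and Cdkn2a (2.98) at the high end.

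The partners of GADD45 proteins moved in both directions. Of 12 measured, 3 rose and 3 fell in the unconventional clone (50% called), and 5 rose and 3 fell in the conventional clone (66.7%). Map2k6, a kinase that activates p38, rose by 1.78 (adjusted p = 1.41e-09) in the unconventional clone and by 1.26 (adjusted p = 6.22e-08) in the conventional clone. Mapk14, p38α itself, rose by 0.36 (adjusted p = 0.000836) in the unconventional clone and by 0.82 (adjusted p = 2.17e-08) in the conventional clone. The change of the JNK gene Mapk9 was 0.18 (adjusted p = 0.0679) in the unconventional clone, and it rose by 0.80 (adjusted p = 1.88e-08) in the conventional clone. Cdk1, the mitotic kinase that GADD45 proteins inhibit, fell by 1.02 (adjusted p = 1.38e-06) in the unconventional clone and fell by 2.85 (adjusted p = 2.74e-13) in the conventional clone. Pcna fell by 0.37 (adjusted p = 0.000207) in the unconventional clone and fell by 0.57 (adjusted p = 6.24e-07) in the conventional clone. The response differed between the clones for 6 of the 12 genes (50%, beside 16.3% of all genes), most for Cdk1 (1.83, adjusted p = 1.39e-07) and the repair nuclease gene Ercc1 (-0.75, adjusted p = 4.13e-05).

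The clones differed in 9 of these 12 genes (75%) under each condition. With the drug Cdk1 was 3.49 higher (adjusted p = 3.26e-15) and Ercc1 1.44 lower in the unconventional clone (-1.44, adjusted p = 3.39e-12). With anti-CD3 alone Cdk1 was 1.66 higher (adjusted p = 4.05e-10) and the JNK gene Mapk8 1.37 higher (adjusted p = 5.9e-09), and Mapk8 was 1.09 higher with the drug (adjusted p = 1.32e-07).

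Of 12 p21 targets and CDK inhibitors, 3 rose and 6 fell in each clone (75% called), and the list's median change was -0.06 in the unconventional clone and -0.31 in the conventional clone. The falls were in cyclin-dependent kinases, cyclins and E2f1, and the rises in inhibitors and in Rb1. Not every cyclin or inhibitor was called: in the conventional clone Ccnd3, Cdkn1c and Cdkn2c were not. Rb1, Ccnd3 and Cdkn1c were named after their values were seen. E2f1, the factor released by cyclin-dependent kinases, fell by 0.82 (adjusted p = 9.89e-08) in the unconventional clone and by 1.22 (adjusted p = 1.18e-10) in the conventional clone, and Cdk2 fell by 0.79 (adjusted p = 7.51e-07) and by 1.11 (adjusted p = 2.75e-09) in the same order. Cdkn1b, which encodes the inhibitor p27, rose by 0.62 (adjusted p = 7.75e-05) in the unconventional clone and by 0.98 (adjusted p = 1.53e-07) in the conventional clone. Ccnd2 fell by 0.65 (adjusted p = 5.54e-08) in the unconventional clone and fell by 0.70 (adjusted p = 8.66e-09) in the conventional clone. The change of the inhibitor gene Cdkn2d was 0.10 (adjusted p = 0.618) in the unconventional clone, and it rose by 0.81 (adjusted p = 4.33e-06) in the conventional clone. Among the 4 genes of this list with unequal responses (33.3%, beside 16.3% of all genes) were Cdkn2d (-0.71, adjusted p = 0.00228) and Cdk4 (0.58, adjusted p = 6.49e-05). Between the clones E2f1 was higher in the unconventional one under both conditions (1.70 with the drug, adjusted p = 2.88e-13, and 1.29 with anti-CD3 alone, adjusted p = 2.91e-11). Cdk4 was higher there with the drug (1.16, adjusted p = 3.94e-12) and with anti-CD3 alone (0.57, adjusted p = 2e-07). Cdkn2c was lower there with the drug (-0.48, adjusted p = 5.36e-05) and with anti-CD3 alone (-0.79, adjusted p = 1.09e-07).

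**Figure D5:**
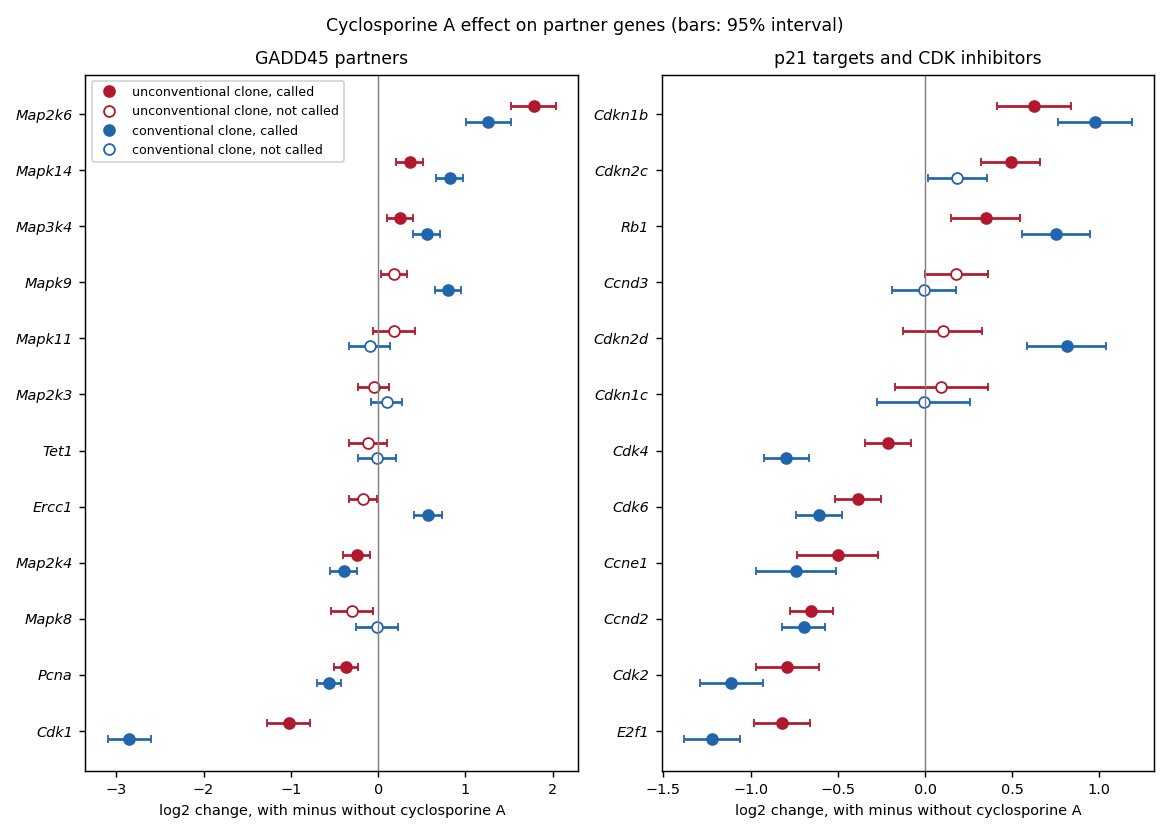
Log2 change with minus without cyclosporine A (horizontal axis) for GADD45 partners and for p21 targets and CDK inhibitors, in the unconventional clone (red) and the conventional clone (blue); points are fitted changes, bars their 95% intervals, and filled points were called. Map2k6 (1.78 and 1.26) lies at the top and Cdk1 (-1.02 and -2.85) at the bottom of its panel.

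Of 9 measured genes of the Fas death pathway, 5 fell in each clone (55.6%) and the other 4 were not called. The list's median change was -0.22 in the unconventional clone and -0.25 in the conventional clone, and every fall was smaller than 2-fold. The ligand Fasl fell by 0.60 (adjusted p = 7.34e-05) in the unconventional clone and by 0.69 (adjusted p = 7.8e-06) in the conventional clone. Cflar, the inhibitor FLIP, fell by 0.86 (adjusted p = 9.01e-07) in the unconventional clone and by 0.44 (adjusted p = 0.00102) in the conventional clone. The adaptor Fadd fell by 0.50 (adjusted p = 9.52e-05) in the unconventional clone, and its change was -0.07 (adjusted p = 0.624) in the conventional clone. The change of the initiator Casp8 was -0.09 (adjusted p = 0.488) in the unconventional clone, and it fell by 0.31 (adjusted p = 0.00371) in the conventional clone. Bid fell by 0.25 (adjusted p = 0.018) in the unconventional clone, a call lost without anti-CD3 replicate 4 (adjusted p = 0.0741) or cyclosporine A replicate 1 (adjusted p = 0.0688) of that clone, and by 0.29 (adjusted p = 0.00517) in the conventional clone. The response differed between the clones for 2 of the 9 genes (22.2%, beside 16.3% of all genes), Fadd and Cflar. The response of Fadd was larger in the unconventional clone (-0.44, adjusted p = 0.0127). For Cflar the difference of effects was -0.42 (adjusted p = 0.0367), between -0.51 and -0.34 when single arrays were left out, with the call lost in 9 of these 16 fits.

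Fasl and Cflar were lower in the unconventional clone under both conditions. Fasl differed by -1.95 (adjusted p = 1.1e-12) with the drug and by -2.04 (adjusted p = 9.13e-13) with anti-CD3 alone, and Cflar by -1.92 (adjusted p = 1.15e-12) and -1.50 (adjusted p = 8.1e-11) in the same order. Of the 9 genes, 6 (66.7%) differed with the drug, 2 higher and 4 lower, and 7 (77.8%) with anti-CD3 alone, 3 higher and 4 lower.

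The genes with the pattern closest to each of the 4 most variable members were found by the root mean square difference of mean-centred log2 levels over the 16 arrays. For Gadd45g they were the integrin gene Itgb8 (0.35), the keratin gene Krt23 (0.46) and the probe set of Mir31 (0.48). For Trp53inp1 they were the collagen gene Col6a3 (0.34), the B cell survival cytokine Tnfsf13b (0.43) and Phf11a (0.48). For Gadd45a they were the probe set of Mir19b-1 (0.32), the pyruvate carboxylase gene Pcx (0.33) and Tnfrsf10b (0.33). For Sesn1 they were Coro1b (0.17), the phosphomannomutase gene Pmm1 (0.18) and Prkra (0.20). These distances are descriptions over arrays of 4 groups, and small values are easier to reach for a gene with a narrow range.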

How the data were processed

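RNA of 16 samples was measured on Affymetrix arrays. The authors deposited 1 value per probe set and array on a log2 scale, as inferred from the values, and the submitters' processing notes name GCOS, Partek 6.2 and RMA without role or order. The genome build is not given in the sources used here. Of 28853 probe sets, 21789 carried 1 gene symbol in the platform annotation, and genes with several probe sets were represented by the one with the highest mean, which left 19938 genes. All 16 value columns were mapped to samples, and 0 were left unmapped.

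A linear model with 4 groups was fitted across all genes on all arrays, by lmFit and eBayes of limma 3.58.1 (R 4.3.3), and p-values were adjusted by Benjamini and Hochberg over all genes of each contrast. Calls needed an adjusted p under 0.05. The 12 residual degrees of freedom among arrays limit the precision. In simulated data on 19938 genes with a drug effect in the conventional clone, 99 of 100 genes changed by 1 on the log2 scale and 100 of 100 changed by 2 were called, with 7 calls among the unchanged genes. The simulated noise was independent between genes and arrays, and no difference between clones was put in. It therefore checks the fit and cannot test the calls made on the measured arrays. The 8 measured genes are all described. Further genes were named by rule: the called genes of each pathway list with the largest change, 4 per drug effect and 2 for each other comparison, and any outside it are said to be so. The members, lists and promoter motifs were chosen with earlier results of these data known. Alternatives were other normalizations, a filter on dim genes, other variance models, array weights, a replicate block, fits to the groups compared and leaving out each array. Promoters are from RefSeq (GRCm38.p6).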

Additional observations from a re-analysis of the deposited data

Results flagged for a closer look

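Gadd45b had an array far from the other 3 of its group in 2 of 32 groups of 4 that were examined, and chance gives such a gap in about 5% of groups. In the unconventional clone with cyclosporine A, replicate 4 stood at 10.11 while the nearest array stood at 9.77, a gap of 0.877 of the group's range. In the conventional clone under anti-CD3 alone, replicate 1 stood at 11.34 while the nearest array stood at 11.54, a gap of 0.832 of the range. The fall of Gadd45b with the drug was called in both clones without either array.

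The response to cyclosporine A differed between the clones, by a test of the difference itself (limma, unconventional minus conventional), for 5 genes. The difference was 1.93 for Trp53inp1, -2.30 for Gadd45g, -0.73 for Gadd45a, 0.49 for Gadd45b and -0.38 for Mdm2. For Trp53inp1, Gadd45a and Gadd45b the drug moved the gene the same way in both clones and by a different amount.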

How the results depend on the processing

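Over all alternatives 6 to 7 of the 8 genes were called for the drug in the unconventional clone, 6 to 8 in the conventional clone, 4 to 5 for the difference of effects, 7 to 8 between clones with anti-CD3 alone and 6 with the drug. No count of calls moved by over 1.5 times. The sign turned only for values that were not called in either fit. For Mdm2 in the unconventional clone the drug effect was 0.0136 after quantile normalization and ran from -0.0771 to 0.0343 when single arrays were left out. The difference of effects for Ccng1 was 0.1053 after quantile normalization and 0.0096 with array weights, and ran from -0.0646 to 0.0335 without single arrays. For Fas it was 0.0202 with array weights and ran from -0.1715 to 0.0921. For the probe set of 4930567H12Rik and Cdkn1a it was 0.0418 after quantile normalization and ran from -0.1507 to 0.0630. The difference between clones with the drug for Gadd45b was -0.0079 after cyclic loess and ran from -0.0235 to 0.1043. The cause was not tested.

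With the replicate number as a block, 6 genes were called in the unconventional clone, 6 in the conventional clone, 5 for the difference of effects, 7 between clones with anti-CD3 alone and 6 with the drug, as without it, and over all genes 4960, 6258, 3229, 8317 and 8778 in the same order. The numbers were not taken to pair the arrays: deviations of same-numbered arrays correlated at -0.137 to 0.284, and 7 of 16 arrays correlated best with their own number. After median centring the split of all genes between clones with anti-CD3 alone was 4417 higher and 2952 lower, beside 4048 higher and 4328 lower. Between clones with the drug it was 4374 higher and 3562 lower, beside 4240 and 4581. For the drug effect it was 1931 higher and 2684 lower in the unconventional clone, beside 2518 and 2452. In the conventional clone it was 2765 higher and 3072 lower, beside 3179 and 3090. For the difference of effects it was 1301 higher and 1445 lower, beside 1696 and 1551. Fas was left out by the filter on dim genes. Dim signal limits what can be said of Fas.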
